A study of Mus musculus with 25 samples.

Results

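Perigonadal white adipose tissue (pgWAT) of mice that lacked only the ChREBPβ isoform was compared with pgWAT of their wild-type littermates. The arrays were chosen by their titles, 6 labelled ChREBPbeta_KO and 7 labelled ChREBPbeta_WT, so that 13 of the 25 arrays of the series were used. The other 12 arrays came from the total ChREBP line, which is Mlxipl-null and lacks ChREBPα and ChREBPβ, and entered the model to estimate the spread and for contrast. All mice were C57BL6/J males and their age was not given in the sources used here. Every mouse, wild types included, had been fasted for 24 hours and refed for 18 hours with food and 20% glucose in the water, so the values describe the refed, glucose-loaded state. The ChREBPβ knockout was a CRISPR/Cas9 deletion in exon 1b of Mlxipl made in embryos, so organs other than fat lacked the isoform too. Which founder line each mouse came from was not given in the sources used here. Array names below join the genotype and the replicate number of the labels (KO 4, WT 1).

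ChREBP is a transcription factor that pairs with Mlx and binds carbohydrate response elements near genes of glycolysis, fructose metabolism and fatty acid synthesis. Its gene, Mlxipl, has an exon 1a promoter for the long ChREBPα, whose entry into the nucleus depends on glucose, and an exon 1b promoter for the short ChREBPβ, which is nuclear at all times. ChREBPα is known to drive the exon 1b promoter when glucose is plentiful.

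The Mlxipl promoters are shown because the deletion concerns the upstream one and leaves the downstream one. Each window holds 250 bases before and 50 bases after a RefSeq start of Mlxipl on GRCm38.p6, plus strand, and capitals mark the E-box CACGTG, which reads the same on both strands. The last sequence, in the promoter of the classical ChREBP target Txnip, is shown because it holds a pair of E-box-like motifs, marked in capitals and searched on both strands as CACGNG and CNCGNG with 5 bases between.
Mlxipl exon 1b promoter, chr5:135089640-135089939: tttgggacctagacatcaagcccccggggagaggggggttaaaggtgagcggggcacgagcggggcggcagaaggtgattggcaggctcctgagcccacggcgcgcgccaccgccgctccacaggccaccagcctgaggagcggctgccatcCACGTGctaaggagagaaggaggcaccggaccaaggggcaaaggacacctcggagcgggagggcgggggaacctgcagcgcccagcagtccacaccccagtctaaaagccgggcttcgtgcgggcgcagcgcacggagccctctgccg
Mlxipl exon 1a promoter, chr5:135106641-135106940: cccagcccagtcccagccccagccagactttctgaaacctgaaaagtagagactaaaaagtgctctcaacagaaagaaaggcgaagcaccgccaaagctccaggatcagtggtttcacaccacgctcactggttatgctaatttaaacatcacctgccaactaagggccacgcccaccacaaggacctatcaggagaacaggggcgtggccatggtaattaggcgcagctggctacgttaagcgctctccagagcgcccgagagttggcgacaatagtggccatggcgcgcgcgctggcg
Txnip promoter stretch, plus strand, chr3:96557852-96557908: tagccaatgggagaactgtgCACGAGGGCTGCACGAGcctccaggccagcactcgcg
The exon 1b window holds CACGTG from its base 153, and the exon 1a window does not hold these letters. In the RefSeq promoter table, 8.09% of 27025 genes have CACGTG in such a window and 0.426% have the pair. A match describes letters and is no evidence of binding.

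The 40561 gene probes of the deposited table, which stand for 26394 genes, were tested. On the arrays of the ChREBPβ line the median raw intensity was 86 to 127 against a local background of 15 to 21, and 73.0% to 77.9% of the gene-probe spots were well above background. Levels below are log2 intensities after quantile normalisation. They can be compared between arrays but not between genes, and each gene is represented by its brightest probe. Differences are knockout minus wild type on the log2 scale with their standard error (SE), from 1 limma model of all 25 arrays with wash batch as a term. Positive values mean higher in the knockout.

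All 19 adipocyte markers measured were well above background on all 13 arrays, among them Adipoq, the adiponectin gene (17.21 to 17.86 in the knockout, 17.33 to 17.99 in the wild type). Genes typical of other organs were detected at unequal levels, which is given here because it touches several results below. The source of their RNA was not tested. The 22 liver genes, averaged per array and set against their mean over the 13 arrays, ran from -2.94 to 1.23 in the knockout (median -0.85) and from -1.60 to 1.91 in the wild type (median 1.09). KO 4 and KO 8 were high in them and WT 1 and WT 8 low, so the groups overlapped. All 22 had a lower mean in the knockout, with a median difference of -1.25. The 12 kidney genes were high on WT 1, WT 3 and WT 7 (2.85, 3.15 and 1.62) and all had a lower mean in the knockout, median -1.12. Testis genes were high on WT 2 (2.76), epididymis and vas deferens genes on WT 1, KO 2 and KO 4 (1.03, 0.83 and 0.74), and lymphocyte markers on WT 6 (1.27). In whole tissue, a different number of cells and a different amount of RNA per cell cannot be told apart. Each list was therefore also fitted with the liver, kidney, testis and epididymis levels as covariates ("organ covariates" below), an alternative chosen after seeing the data.

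**Figure D1:**
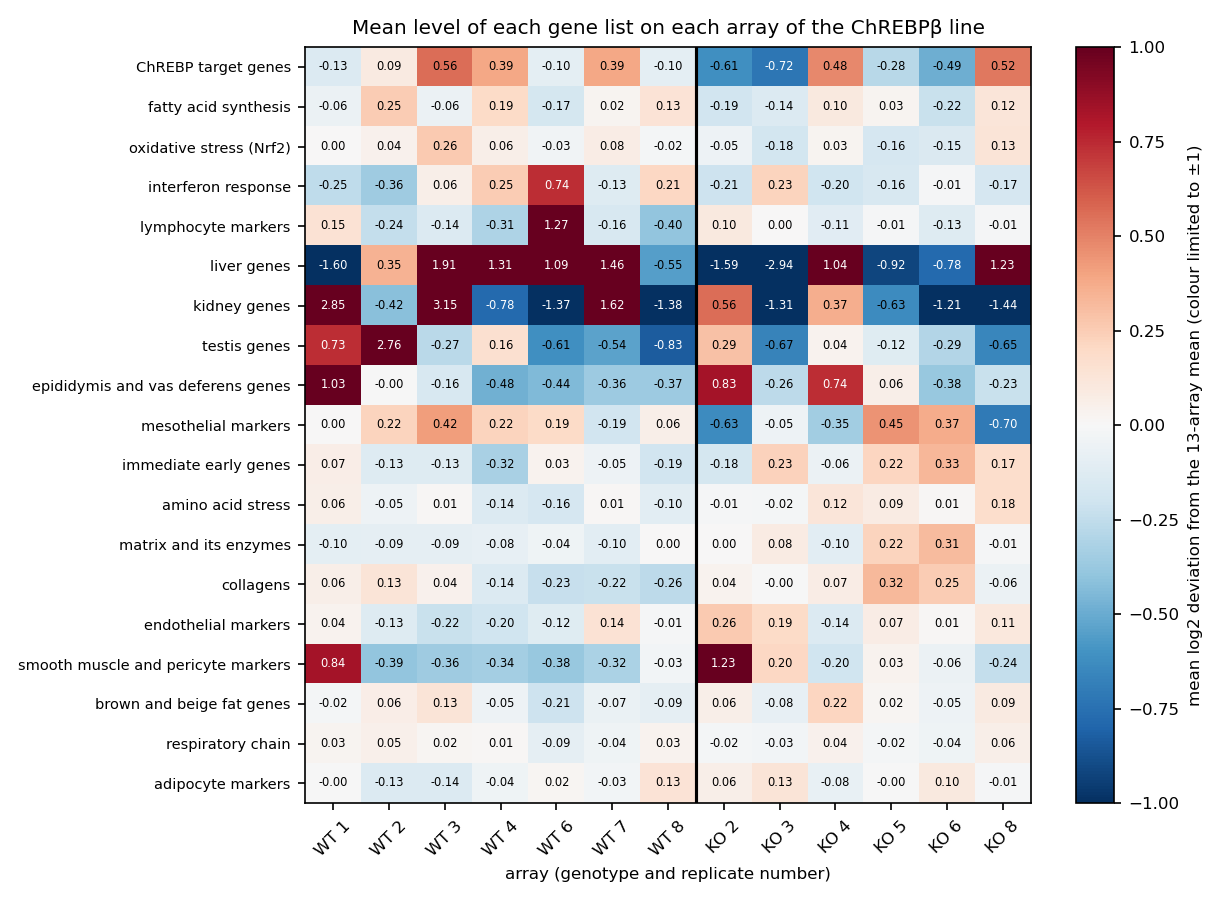
Mean log2 deviation of 19 gene lists (rows) on each of the 13 arrays (columns, WT left of the line and KO right of it) from the 13-array mean, with the colour limited to ±1 and the value printed in each cell. Liver genes run from -2.94 on KO 3 to 1.91 on WT 3, while respiratory chain genes stay between -0.09 and 0.06.

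Mlxipl, the targeted gene, had a lower mean in the knockout. Its brightest probe (mm9, chromosome 5, 135613705 to 135613764) lay at 14.02, 14.35 and 14.70 (lowest, median and highest of 6 arrays) in the knockout and at 14.70, 15.07 and 15.43 (of 7 arrays) in the wild type. KO 8 stood level with WT 1, both at 14.70, and the other 5 knockout arrays were below every wild-type array. The difference was -0.73 ± 0.14, or 1.66-fold lower, with a limma adjusted p of 0.146, and within the wash batches it was -0.92 to -0.30.

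The other probes of Mlxipl gave smaller differences, and the mean over its probes was -0.42. The one at 135598483 to 135599113 differed by -0.47 ± 0.12 and the one at 135614195 to 135614252 by -0.05 ± 0.08. In the total ChREBP line the brightest probe differed by -1.75, and the effects of the lines differed by 1.02 (limma adjusted p = 0.00367). The probe at 135598483 gave -0.66 there and the one at 135614195 gave 0.08. For neither did the test between the lines pass (limma adjusted p = 0.77 and 0.76). The probe at 135614195 was thus not lower in the Mlxipl-null line either, and it is part of the mean over probes. None of these probes is known here to read exon 1b alone, so the isoforms were not separated.

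Across the genome no probe passed the test. Of 40561 probes 0 (0%) had a limma adjusted p under 0.05, and the smallest, 0.0519, was shared by Plxna2 and Tmem176b. Without adjustment, 2529 of 26394 genes had a limma p under 0.05, 1685 (6.38% of genes) higher in the knockout and 844 (3.2%) lower. These shares are the background against which each list below is read. Of all genes 57.1% had a difference above 0, and the median difference was 0.02. With the organ covariates 46.0% were above 0 and the counts were 1296 higher and 1155 lower, so the lean towards higher genes was not seen under that model. Differences of at least 1 log2 unit in size at an unadjusted p under 0.05 leaned the other way, with 19 genes higher and 122 lower.

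KO 4 weighed on these counts. Without it, 74 genes had a limma adjusted p under 0.05, 61 higher and 13 lower, and 71 of the 74 were among the 2529 genes. They included Plxna2, Otop1, Lipf, Slc5a7, S100b, Lox and P4ha2 among the higher genes and Mlxipl, Tmem176b, Tmem176a, Chdh and Slc25a42 among the lower. With array quality weights 43 genes passed, where the lowest weights in the ChREBPβ line were 0.408 (KO 3), 0.573 (WT 2), 0.623 (WT 1) and 0.632 (KO 4), so KO 4 did not have the lowest weight. Leaving out WT 7 gave 2 genes, Plxna2 and Tmem176b, and leaving out any other single array gave 0. The counts at an unadjusted p under 0.05 also rested on single arrays. They were 1260 higher and 465 lower without KO 2, 2515 and 1278 without KO 4, and 1774 and 1292 without KO 8.

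Groups that did not overlap were found for 16 genes (0.0606% of 26394) higher in the knockout and for 0 genes (0%) lower. The 16 were picked for that separation, so their levels are a description. Ddit3, the stress-response transcription factor CHOP, lay at 10.34, 10.37 and 10.62 in the knockout and at 9.77, 10.09 and 10.21 in the wild type (0.38 ± 0.09). Glp2r, a gut hormone receptor gene, differed by 0.65 ± 0.17 and Ldb2, an endothelial cofactor gene, by 0.31 ± 0.08. Dlk1, a marker of fat cell precursors, differed by 1.12 ± 0.42, but KO 2 alone (11.02) stood above 7.64. The other 12 were Plxna2, Otop1, Blzf1, Slx4ip, Rhbdd1, Caml, Asap1, Eif3j1, Prkd1, Armc1, Faf2 and Tsr2, with differences from 0.12 (Armc1) to 1.62 (Otop1).

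The higher gene of smallest p was Plxna2, a receptor for semaphorins. It lay at 11.18, 11.41 and 11.55 in the knockout and at 10.73, 10.93 and 11.15 in the wild type (0.43 ± 0.07, 1.35-fold). The groups did not overlap and the difference was 0.33 to 0.54 within the wash batches, although a second probe gave 0.15 ± 0.10. Otop1, a proton channel gene of brown fat, lay at 6.59, 7.48 and 7.86 against 5.27, 5.72 and 6.28 (1.62 ± 0.27, 3.07-fold, limma adjusted p = 0.0939). Its second probe differed by only 0.20 ± 0.15, and the mean over its probes was 0.91, so the size holds for 1 probe. In the total ChREBP line Otop1 gave -0.66, and the effects of the lines differed by 2.28 (limma adjusted p = 0.00101).

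Slc5a7, the choline transporter of cholinergic neurons, had the largest difference of the 15 higher genes of smallest p. It lay at 7.80, 9.64 and 10.94 in the knockout and at 6.23, 7.78 and 8.66 in the wild type (2.22 ± 0.47, 4.65-fold), and its second probe gave 2.12 ± 0.41. S100b, a calcium-binding protein of Schwann cells and adipocytes, lay at 7.43, 8.49 and 9.38 against 6.55, 7.52 and 7.72 (1.31 ± 0.27). For both genes 5 of 6 knockout arrays were above all wild-type arrays. Pkp1, a desmosome protein, gave 1.83 ± 0.40 and Lipf, gastric lipase, 1.36 ± 0.25.

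The other 9 higher genes differed by 0.25 to 0.71. Map1a, a microtubule-associated protein, gave 0.71 ± 0.14, Frmd3 0.68 ± 0.14, Igsf21, a synaptic adhesion protein, 0.53 ± 0.10, and Epha4, an ephrin receptor, 0.49 ± 0.09. Mdfic, Csgalnact1 (which starts chondroitin sulphate chains), Rapgef2, Trim35 and Gmfb gave 0.45, 0.41, 0.31, 0.28 and 0.25. Igsf21 lay on the other side of 0 in the total ChREBP line (-0.96, limma adjusted p of the difference 1.42e-06). Plxna2, Frmd3, Csgalnact1 and Trim35 were higher in that line too, by 0.35, 1.06, 0.40 and 0.21, and for these 4 the test between the lines did not pass. Map1a was 0.42 as a mean over its probes, and Frmd3 0.41 with normexp background correction.

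Among the 15 lower genes of smallest p, Tmem176b and Tmem176a are neighbouring genes for membrane proteins of immune cells. Tmem176b lay at 14.01, 14.31 and 14.63 in the knockout and at 14.49, 14.81 and 14.99 in the wild type (-0.52 ± 0.08), and its second probe gave -0.57 ± 0.13. Tmem176a lay at 9.67, 10.21 and 10.76 against 10.46, 10.74 and 11.32 (-0.66 ± 0.14). For both genes 5 of 6 knockout arrays were below all wild-type arrays. Of 11 genes of the Tmem176 and Ms4a family 9 had a lower mean, and the Tmem176 pair were the 2 with an unadjusted p under 0.05.

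Rnf144b and Ppp1r3c were among the lower genes that had lower means in the knockouts of both lines. Fdx1, described below, was another, at -0.46 in the total ChREBP line (limma adjusted p = 2.15e-05). Rnf144b, a ubiquitin ligase gene, lay at 11.02, 11.54 and 12.06 in the knockout and at 11.96, 12.11 and 13.10 in the wild type (-0.78 ± 0.17). It gave -2.22 in the total ChREBP line, and the effects of the lines differed by 1.44 (limma adjusted p = 0.000721). Ppp1r3c, which directs a phosphatase to glycogen, lay at 10.50, 10.79 and 11.39 against 11.12, 11.39 and 11.77 (-0.53 ± 0.12), with 5 of 6 knockout arrays below all wild-type arrays. It gave -0.53 in the total ChREBP line. Of the 14 lower genes with a RefSeq promoter, 2 hold CACGTG in it (14.3%, against 8.09% of all genes), Mlxipl and Ppp1r3c. Of the 12 higher genes with one, 1 does, Gmfb. The pair is found in 0 of these 14 lower genes and in 1 of the 12 higher genes. Of the 30 genes most lowered in the total ChREBP line, 23 have a RefSeq promoter. CACGTG is in 2 of them (8.7%) and the pair in 0.

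The acute-phase genes Saa2 and Saa1, for serum amyloid A, had the largest differences of the lower genes and the widest spread. Saa2 lay at 6.68, 7.95 and 9.79 in the knockout and at 7.63, 12.45 and 14.26 in the wild type (-3.60 ± 0.83), and Saa1 at 9.26, 10.11 and 10.63 against 9.83, 12.53 and 14.31 (-2.28 ± 0.54). For each, 2 of 6 knockout arrays were below all wild-type arrays. They are near-identical copies whose probes may share RNA, and liver makes them in quantity. With the organ covariates they gave -3.59 ± 0.50 and -2.64 ± 0.43, limma adjusted p = 0.0316 and 0.0477.

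The other lower genes had smaller differences. Chdh (choline oxidation), Slc25a42 (a coenzyme A carrier), Fahd1 (an oxaloacetate decarboxylase) and Fdx1 (an electron donor of steroid synthesis) gave -0.94 ± 0.22, -0.47 ± 0.10, -0.45 ± 0.08 and -0.24 ± 0.06. Chdh was higher on KO 4 (9.31) than on any wild-type array, and without KO 4 its difference was -1.18. Another probe setting took it far nearer to 0, since it was -0.19 when only probes well measured on every array of the ChREBPβ line were kept. Cp, the copper oxidase ceruloplasmin, gave -0.91 ± 0.22, Sprr1a -0.91 ± 0.19, Oplah, of glutathione turnover, -0.38 ± 0.09 and Aldh16a1 -0.28 ± 0.07. The organ covariates gave smaller differences for Chdh (-0.61 ± 0.26), Slc25a42 (-0.29 ± 0.12), Cp (-0.58 ± 0.21) and Aldh16a1 (-0.16 ± 0.07). As means over all probes of the gene the same 4 gave -0.51, -0.27, -0.46 and -0.086. With normexp background correction Sprr1a was -0.54, and with the processed signal it was -1.39. Oplah and Slc25a42 lay above 0 in the total ChREBP line (0.75 and 0.35, limma adjusted p of the difference 1.76e-05 and 0.00181).

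**Figure D2:**
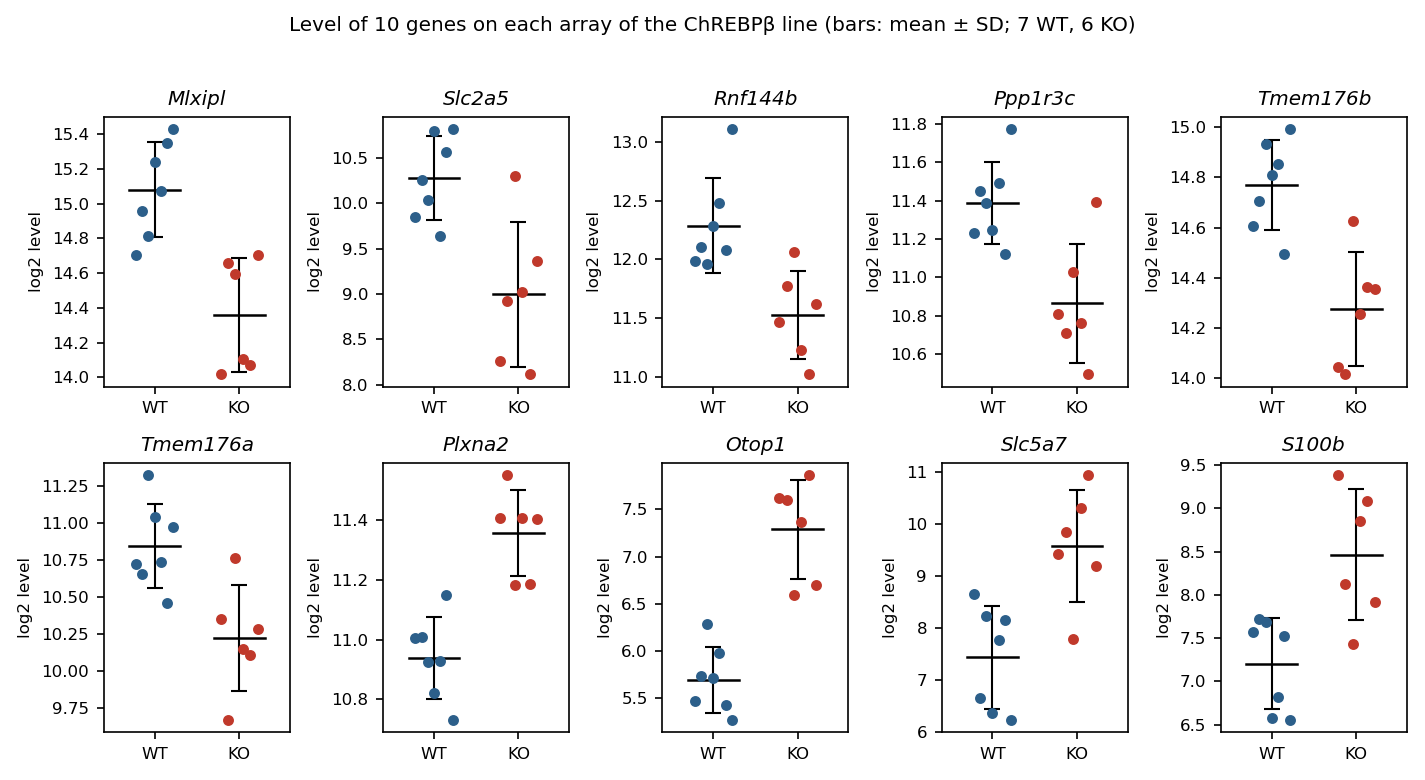
Log2 level of 10 genes on each array of the ChREBPβ line (7 WT in blue, 6 KO in red, 1 point per array, with the mean and SD in black). Plxna2 and Otop1 separate the genotypes completely, Mlxipl meets at 14.70, and Slc2a5 overlaps through 1 knockout array at 10.30.

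**Figure D3:**
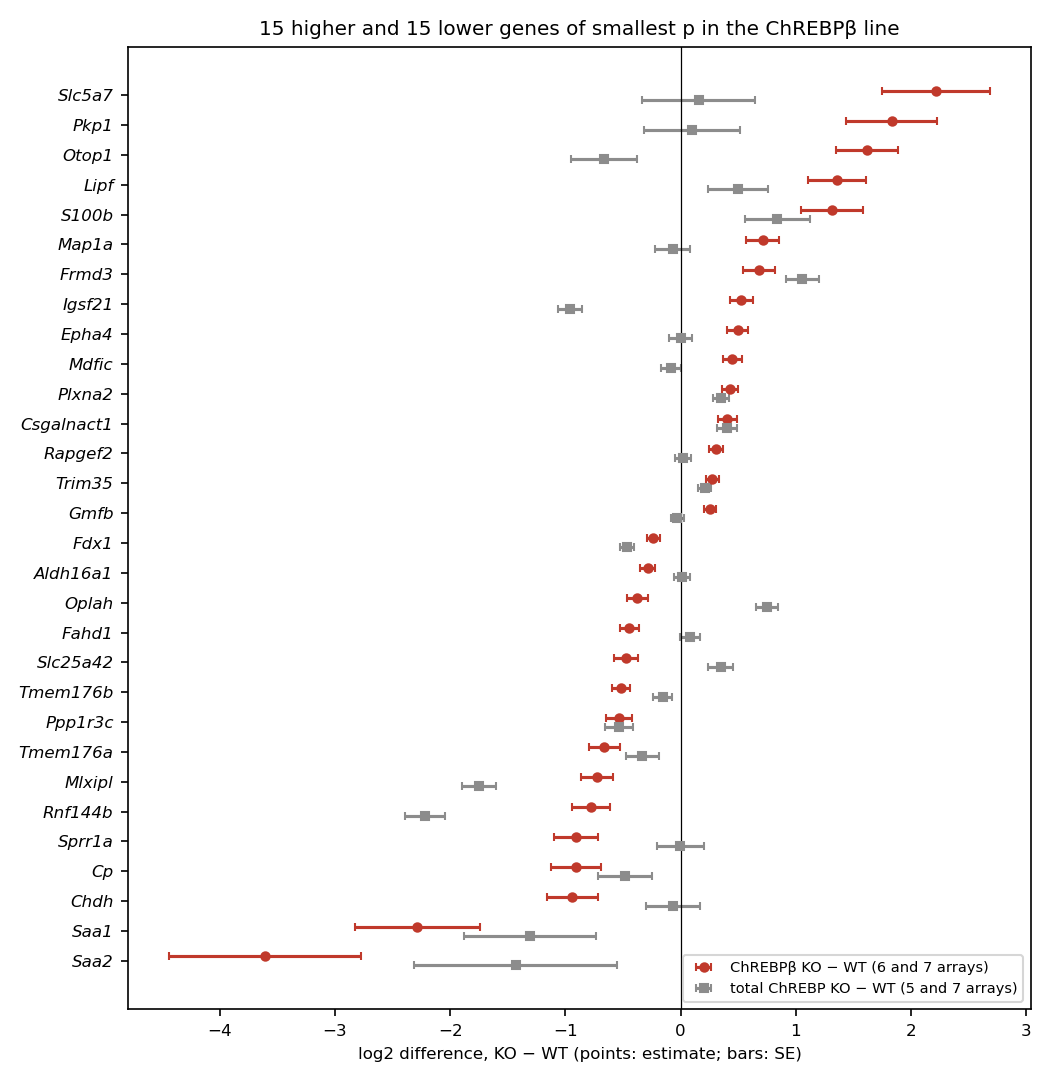
Log2 difference, knockout minus wild type, with its SE, for the 15 higher and 15 lower genes of smallest p in the ChREBPβ line (red circles) and for the same genes in the total ChREBP line (grey squares). Rnf144b lies further from 0 in the total line (-2.22 against -0.78), whereas Igsf21 and Oplah lie on opposite sides of 0.

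Known targets of ChREBP were taken as a list to look for small shared shifts. Of 24 genes, 19 had a lower mean in the knockout and 5 a higher one, 4 lower at an unadjusted p under 0.05 (16.7%, against 3.2% of all genes) and 0 higher, with a median of -0.28 against 0.02 for all genes. The 4 were Slc2a5, Bhlhe40, Slc25a1 and Mlxipl. The last is the targeted gene itself, so its lower level is no evidence of a shift in the other targets. The list mean was 0.48 and 0.52 on KO 4 and KO 8, the knockout arrays with high liver genes, and -0.72 to -0.28 on the other 4, against -0.13 to 0.56 in the wild type. Liver expresses many of these genes. With the organ covariates the median was 0.08, with 14 genes higher and 10 lower, so the list did not keep its direction.

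Slc2a5, the fructose transporter GLUT5, lay at 8.11, 8.97 and 10.30 in the knockout and at 9.65, 10.26 and 10.82 in the wild type. KO 4 lay within the wild-type range and the other 5 knockout arrays below it. The difference was -1.32 ± 0.36 (2.50-fold lower, limma adjusted p = 0.30), -1.49 to -1.14 within the wash batches and -1.0 ± 0.44 with the organ covariates. In the total ChREBP line it was -6.74, and the effects of the lines differed by 5.42 (limma adjusted p = 1.13e-06). Bhlhe40, a repressor linked to the clock, gave -0.60 ± 0.20. Slc25a1, which exports citrate for fatty acid synthesis, gave -0.45 ± 0.15.

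The enzymes of fatty acid synthesis, the best known ChREBP targets, differed little in size from wild type. Of 12 genes, 10 had a lower mean, 3 at an unadjusted p under 0.05, namely Slc25a1, Mcat and Srebf1, with a median of -0.07 (-0.12 with the organ covariates). Acaca and Acly, the first steps from citrate, gave -0.08 ± 0.09 and -0.12 ± 0.11. Thrsp, a lipogenic regulator, gave -0.05 ± 0.08 and Me1, an NADPH source, -0.01 ± 0.11. Fasn, fatty acid synthase, gave -0.04 ± 0.04, but it sat at the top of the quantile scale (18.79) on most arrays and its difference is compressed. Acacb gave -0.30 ± 0.15, Srebf1, the insulin-driven lipogenic regulator, -0.20 ± 0.09 and Mcat, of mitochondrial fatty acid synthesis, -0.14 ± 0.05.

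In the total ChREBP line Acaca, Acly, Thrsp, Me1 and Acacb gave -1.91, -1.67, -0.95, -1.05 and -1.23. The effects of the lines differed for each of the 5, with limma adjusted p-values from 2.04e-08 (Acaca) to 0.0141 (Acacb). Elovl6, a fatty acid elongase, gave -0.08 ± 0.18 in the ChREBPβ line and -3.34 in the total line (limma adjusted p of the difference 6.74e-08), and Scd1, a desaturase, 0.03 ± 0.10 and 0.05. Gpd1, which makes glycerol phosphate, and Slc2a4, the insulin-regulated glucose transporter, gave -0.04 ± 0.09 and -0.07 ± 0.12 here, against -1.18 and -1.40 there.

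The glucose-induced targets Txnip and Arrdc4, both arrestin-like inhibitors of glucose uptake, had higher means in the knockout. Txnip gave 0.13 ± 0.11 and Arrdc4 0.25 ± 0.15, and their groups overlapped. The partners Mlx and Mlxip gave -0.13 ± 0.14 and -0.02 ± 0.09. Of 11 genes of the ChREBP, Mlx and Max network, 1 was higher (Max, 0.10 ± 0.05) and 1 lower (Mlxipl) at an unadjusted p under 0.05. Pklr, liver-type pyruvate kinase, gave -0.34 ± 0.46 and Pck1, of glyceroneogenesis, -0.04 ± 0.31, against 2.44 for Pck1 in the total ChREBP line.

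Fructose and polyol metabolism had the lowest median of the metabolic lists, -0.60, with 6 of 8 genes lower and 2 of them at an unadjusted p under 0.05. These were Glyctk (-0.92 ± 0.39) and Sord (-0.56 ± 0.27), and Khk, fructokinase, gave -0.78 ± 0.45. Liver expresses this pathway strongly, and with the organ covariates Glyctk, Sord and Khk gave -0.01 ± 0.28, 0.03 ± 0.24 and 0.26 ± 0.35. Glycolysis (14 of 22 lower, median -0.04) and the steps from pyruvate to citrate (12 of 17 lower, median -0.04) lay near the median of all genes. Glycogen genes had 11 of 18 higher, with Ppp1r3d (0.30 ± 0.10) above and Ppp1r3c and Ugp2 (-0.19 ± 0.08) below 0 at an unadjusted p under 0.05.

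Genes of mitochondria and protein synthesis had medians near 0. Of 75 respiratory chain genes 40 were higher (median 0.01) and of 75 mitochondrial ribosome genes 32 (median -0.01). The citric acid cycle (19 genes) and the ribosomal proteins (54 genes) had medians of -0.01 and -0.01. Fatty acid oxidation had 20 of 31 genes lower (median -0.04). At an unadjusted p under 0.05, 4 were lower (12.9%, against 3.2% of all genes) and 1 higher. With the organ covariates 18 were lower (median -0.02), 0 of them at p under 0.05. Branched-chain amino acid breakdown had 16 of 22 genes lower (median -0.05), with 1 lower and 1 higher at an unadjusted p under 0.05. With those covariates 18 were lower (median -0.12), and 5 lower and 1 higher had p under 0.05. Sterol synthesis had 15 of 23 genes higher (median 0.05), and 20 of 23 with the organ covariates (median 0.24).

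**Figure D4:**
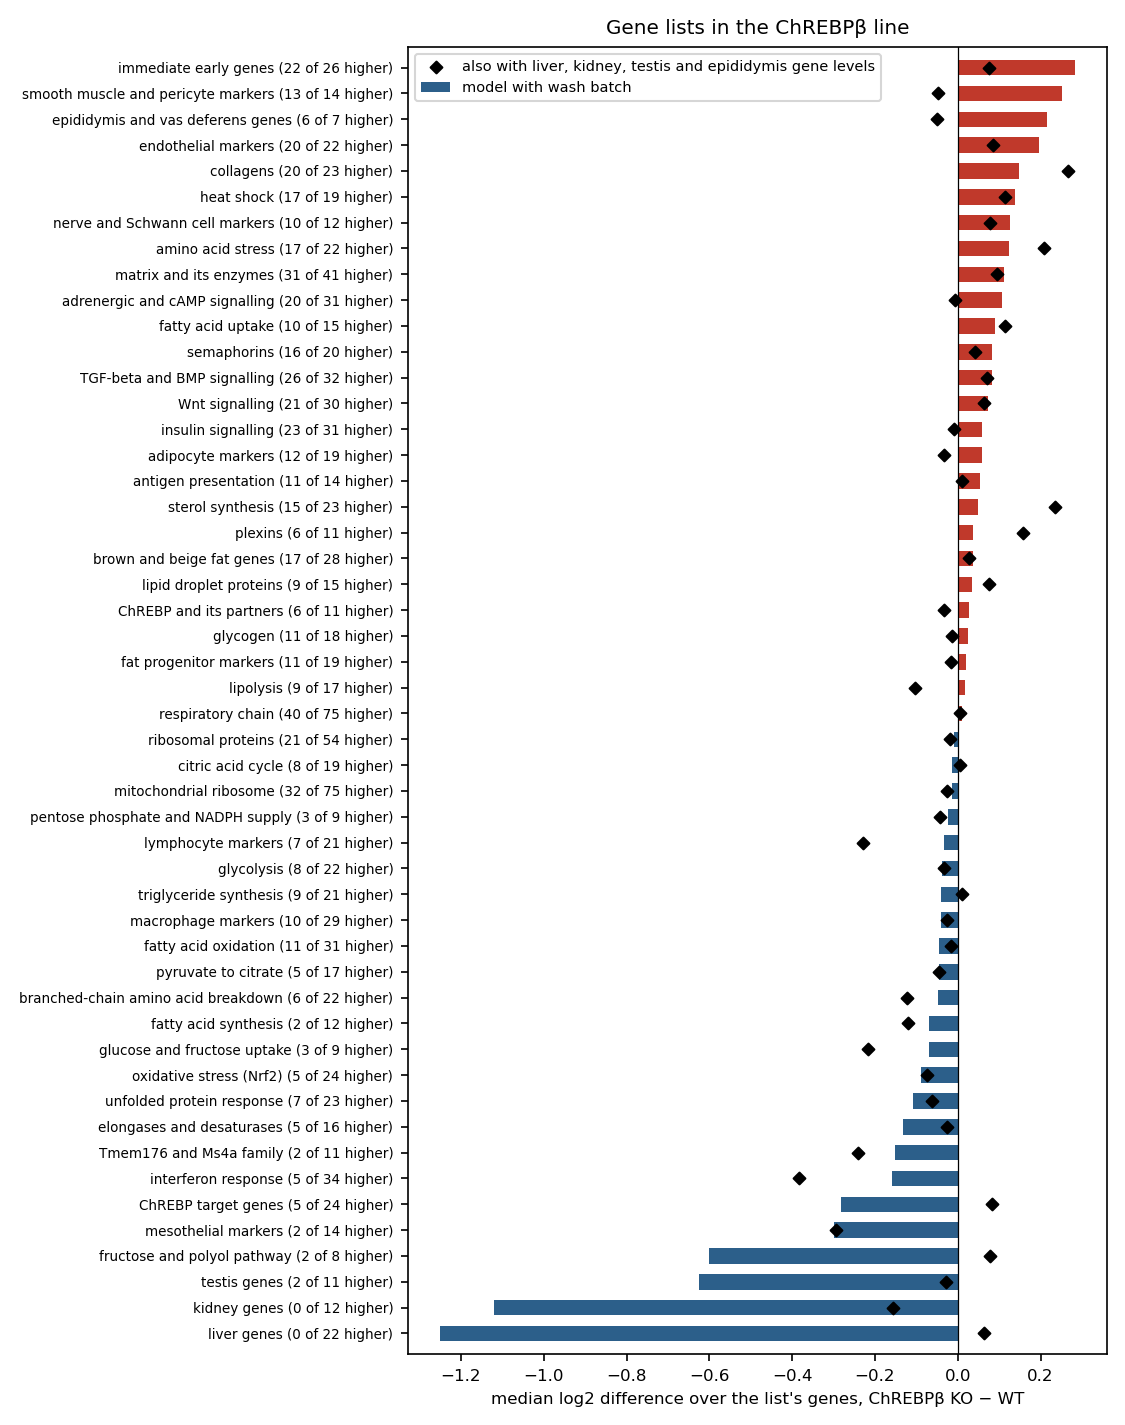
Median log2 difference, ChREBPβ knockout minus wild type, of 50 gene lists (bars, red above 0 and blue below), the same median with the organ covariates (diamonds), and the count of higher genes beside each name (the organ lists are drawn towards 0 by the covariates themselves). ChREBP targets go from -0.28 to 0.08, while collagens go from 0.15 to 0.27.

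Genes of the extracellular matrix leaned upward. Of 41 matrix proteins and enzymes 31 were higher, 11 of them at an unadjusted p under 0.05 (26.8%, against 6.38% of all genes) and 0 lower at that level, with a median of 0.11. The list mean was -0.10 to 0.31 in the knockout and -0.10 to 0.00 in the wild type, and 4 of 6 knockout arrays were above all wild-type arrays. Under the organ covariates the counts at p under 0.05 were 14 higher and 1 lower. Lox, which crosslinks collagen, lay at 10.39, 11.12 and 11.31 in the knockout and at 10.25, 10.47 and 10.75 in the wild type (0.51 ± 0.13). P4ha2, which hydroxylates collagen, gave 0.27 ± 0.07, the protease gene Adamts1 0.56 ± 0.15 and the macrophage elastase gene Mmp12 0.97 ± 0.28.

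Among 23 collagens 20 were higher, 5 of them at an unadjusted p under 0.05 and 0 lower, with a median of 0.15. Col5a3 lay at 14.54, 14.76 and 14.91 in the knockout and at 13.58, 14.04 and 14.60 in the wild type (0.64 ± 0.18), with 5 of 6 knockout arrays above all wild-type arrays. Col6a1, Col12a1 and Col5a1 gave 0.44 ± 0.15, 0.52 ± 0.18 and 0.41 ± 0.16. The collagen mean was highest on KO 5 (0.32) and KO 6 (0.25), and the group difference within the wash batches was -0.13 to 0.40. TGF-β and BMP signalling had 26 of 32 genes higher (median 0.08). At an unadjusted p under 0.05, 2 were higher (6.25%) and 1 lower (3.1%), near the shares of all genes (6.38% and 3.2%). Wnt signalling had 21 of 30 genes higher (median 0.07), 4 of them at that level (13.3%) and 0 lower. Of the Wnt list, Wnt5a gave 0.33 ± 0.11, Fzd4, a receptor, 0.41 ± 0.16, Sfrp5, a secreted inhibitor, 1.47 ± 0.57 and Wnt10b 0.32 ± 0.13.

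Endothelial markers leaned upward too. Of 22, 20 were higher, 8 of them at an unadjusted p under 0.05 (36.4%), and 1 was lower at that level, with a median of 0.20. The differences ran from -0.86 to 0.49, so the largest in size was a lower one. Ptprb, Egfl7, Robo4 and Kdr, the VEGF receptor, gave 0.37 ± 0.11, 0.39 ± 0.12, 0.49 ± 0.15 and 0.36 ± 0.11. The list mean was -0.14 to 0.26 in the knockout and -0.22 to 0.14 in the wild type, with KO 4 the lowest knockout array. Under the organ covariates 14 were higher and 8 lower, with a median of 0.09, and 5 higher and 0 lower genes had p under 0.05.

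Smooth muscle and pericyte markers (13 of 14 higher, median 0.25) were high on KO 2 (1.23) and WT 1 (0.84) but not on KO 4 (-0.20), although epididymis and vas deferens genes were high on all 3 arrays, and their median with the organ covariates was -0.05. Rgs5, a pericyte marker, gave 0.24 ± 0.09. Nerve and Schwann cell markers had 10 of 12 higher (median 0.13), 3 at an unadjusted p under 0.05: S100b, the myelin gene Mbp (0.23 ± 0.09) and the noradrenaline enzyme gene Dbh (0.14 ± 0.06). Th, the first enzyme of noradrenaline synthesis, gave -0.14 ± 0.09.

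Early response and stress genes leaned upward. Of 26 immediate early genes 22 were higher, 3 at an unadjusted p under 0.05 (11.5%, against 6.38% of all genes), with a median of 0.28. On 4 of 6 knockout arrays the list mean was above all wild-type arrays. With the organ covariates 15 were higher and 11 lower, 1 of the higher at p under 0.05, and the median was 0.07. Dusp1, a phosphatase that ends MAP kinase signals, Klf6, Jun and Ccn1 gave 0.53 ± 0.18, 0.32 ± 0.12, 0.32 ± 0.15 and 0.68 ± 0.36. Of 22 genes of the amino acid stress response, which Atf4 controls, 17 were higher, 6 at an unadjusted p under 0.05 (27.3%) and 0 lower, with a median of 0.12 (0.21 with the organ covariates). Beside Ddit3, Vldlr, a lipoprotein receptor gene, Nupr1 and Trib3, an inhibitor of insulin signalling, gave 0.51 ± 0.15, 0.36 ± 0.11 and 0.32 ± 0.11.

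The unfolded protein response and the antioxidant genes leaned downward. Of 23 genes of the unfolded protein response 16 were lower (median -0.11), 2 at an unadjusted p under 0.05 (8.7%, against 3.2% of all genes) and 0 higher. With the organ covariates 17 were lower (median -0.06), and 6 lower and 1 higher had p under 0.05. Of 24 genes controlled by Nrf2, 19 were lower, 4 at an unadjusted p under 0.05 (16.7%) and 0 higher, with a median of -0.09. Under the organ covariates 16 were lower, 2 at p under 0.05, and 2 were higher at that level (median -0.07), so the count at p under 0.05 was no longer one-sided. Gpx3, Gsr, Gsta3 and Sod1, enzymes of the defence against peroxides and reactive oxygen, gave -0.61 ± 0.16, -0.26 ± 0.07, -0.41 ± 0.18 and -0.11 ± 0.05, and Gsta3 gave -0.17 ± 0.20 with those covariates. Heat shock genes had 17 of 19 higher (median 0.14), and 12 of 19 with the organ covariates (median 0.11).

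Brown and beige fat genes were split. Of 28, 17 were higher and 11 lower, with 6 higher and 3 lower at an unadjusted p under 0.05 and a median of 0.04. Prdm16, a determinant of brown fat identity, lay at 9.01, 9.23 and 9.37 in the knockout and at 8.59, 8.89 and 9.15 in the wild type (0.34 ± 0.09), with 5 of 6 knockout arrays above all wild-type arrays. Cpt1b, which admits fatty acids to mitochondria, gave 0.33 ± 0.09 and the coactivator gene Ppargc1b -0.48 ± 0.13.

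Ucp1, the uncoupling protein of heat production, was near the detection limit. It was well above background on 6 of 6 knockout arrays and on 3 of 7 wild-type arrays, at 4.76, 4.98 and 6.94 against 4.32, 4.66 and 5.22. KO 4 held the highest value, and without it the difference of 0.58 ± 0.24 was 0.28. Dio2, which activates thyroid hormone, gave 0.87 ± 0.37, although the highest level was on WT 2 (9.46). Cidea gave 0.51 ± 0.44, Ppargc1a -0.14 ± 0.15 and Adrb3, the adrenergic receptor gene of adipocytes, -0.15 ± 0.15.

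White adipocyte genes differed little in size. Of 19 adipocyte markers 12 were higher, 3 at an unadjusted p under 0.05, with a median of 0.06 (-0.03 with the organ covariates). Lep, which encodes leptin, lay at 9.69, 10.79 and 11.53 in the knockout and at 9.34, 9.85 and 11.11 in the wild type (0.75 ± 0.26), with 1 knockout array above all wild-type arrays. Trarg1, a regulator of GLUT4 traffic, and Plin1, a lipid droplet coat protein, gave 0.25 ± 0.10 and 0.19 ± 0.08, Pparg, the master regulator of fat cells, 0.17 ± 0.09 and Adipoq 0.06 ± 0.12. Insulin signalling had 23 of 31 genes higher, 4 at an unadjusted p under 0.05 and 0 lower, among them Trib3, Rptor (0.13 ± 0.05) and Pdpk1 (0.18 ± 0.07), with a median of 0.06 (-0.01 with the organ covariates).

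Fatty acid uptake was split. Vldlr and Gpihbp1, which holds lipoprotein lipase on capillaries (0.29 ± 0.11), were the 2 higher genes at an unadjusted p under 0.05, and Lmf1, which matures that lipase (-0.19 ± 0.06), and Apoc1 (-0.54 ± 0.22) were among the 4 lower ones. Of 34 interferon response genes 29 were lower, 2 at an unadjusted p under 0.05, with a median of -0.16. The list mean was -0.21 to 0.23 in the knockout and -0.36 to 0.74 in the wild type, WT 6 being the highest, and the group difference had both signs within the wash batches (-0.56 to 0.58). Under the organ covariates the median was -0.38 and 21 genes were lower at p under 0.05. Macrophage markers (19 of 29 lower) and lymphocyte markers (14 of 21 lower) had medians of -0.04 and -0.03. At an unadjusted p under 0.05, 4 macrophage markers were lower (13.8%, against 3.2% of all genes) and 0 higher. Their differences ran from -1.96 to 0.80. For lymphocyte markers 1 was lower at that level and 0 higher. Under the organ covariates 3 macrophage markers were lower at p under 0.05 and 0 higher, and the lymphocyte median was -0.23.

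The total ChREBP line gives a yardstick, because its knockouts and wild types are other arrays. The 30 genes most lowered there, among those with a limma adjusted p under 0.05 and without Mlxipl, differed by -6.74 to -2.47 (median -3.11). In the ChREBPβ line 21 of them were lower and 9 higher, 7 lower (23.3%) and 0 higher at an unadjusted p under 0.05, with a median of -0.37. Of the 30, 7 are liver genes (Fgb, Fgg, Ambp, Mup17, Mup18, Mup19 and Serpinc1), singled out after their values were seen, and all 7 were lower here, by -1.65 (Fgb) to -0.85 (Mup19). Over the other 23, 14 were lower and 9 higher, 7 lower at an unadjusted p under 0.05, with a median of -0.19. Adcy10, the soluble adenylyl cyclase, lay at 7.67, 7.84 and 8.35 in the knockout and at 7.91, 8.60 and 9.09 in the wild type (-0.64 ± 0.19). Its 3 other probes gave -0.64 ± 0.18, -0.46 ± 0.14 and -0.28 ± 0.13. Pth1r, the parathyroid hormone receptor gene, lay at 10.63, 10.88 and 11.42 against 11.25, 11.63 and 12.13 (-0.70 ± 0.21), and Slc25a48, a mitochondrial carrier gene, gave -0.84 ± 0.22.

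The sizes were far from those of the total line. Adcy10, Pth1r and Slc25a48 gave -4.68, -3.76 and -2.80 there, and for 22 of the 30 the effects of the lines differed at a limma adjusted p under 0.05. The 30 were picked by their effect in the total line, which is part of that test, so the count was favoured by the choice. Of all 947 genes called lower there, 507 differed between the lines at that level. The share over all genes is not given here. Of the 30 genes most raised in the total line, 19 were higher here and 11 lower, 8 higher (26.7%) and 1 lower at an unadjusted p under 0.05, with a median of 0.20 against 1.61 there. Prnd, which encodes a prion-like protein, gave 1.14 ± 0.29 and Crtac1, a matrix protein gene, 1.02 ± 0.30, and for both the test between the lines did not pass.

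Over all genes called in the total line the lean was the same and small. Of 947 genes lower there, 619 (65.4%) were lower here, with a median of -0.05, and 8.87% were lower and 4.22% higher at an unadjusted p under 0.05. Of 1486 genes higher there, 1070 (72.0%) were higher here, with a median of 0.06, and 17.6% were higher and 1.95% lower at that level. For comparison, 57.1% of all genes had a difference above 0 here, and 6.38% were higher and 3.2% lower at that level. Organ genes differed in the total line too, with a median of -1.90 for the liver list, and their part in this lean was not tested.

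**Figure D5:**
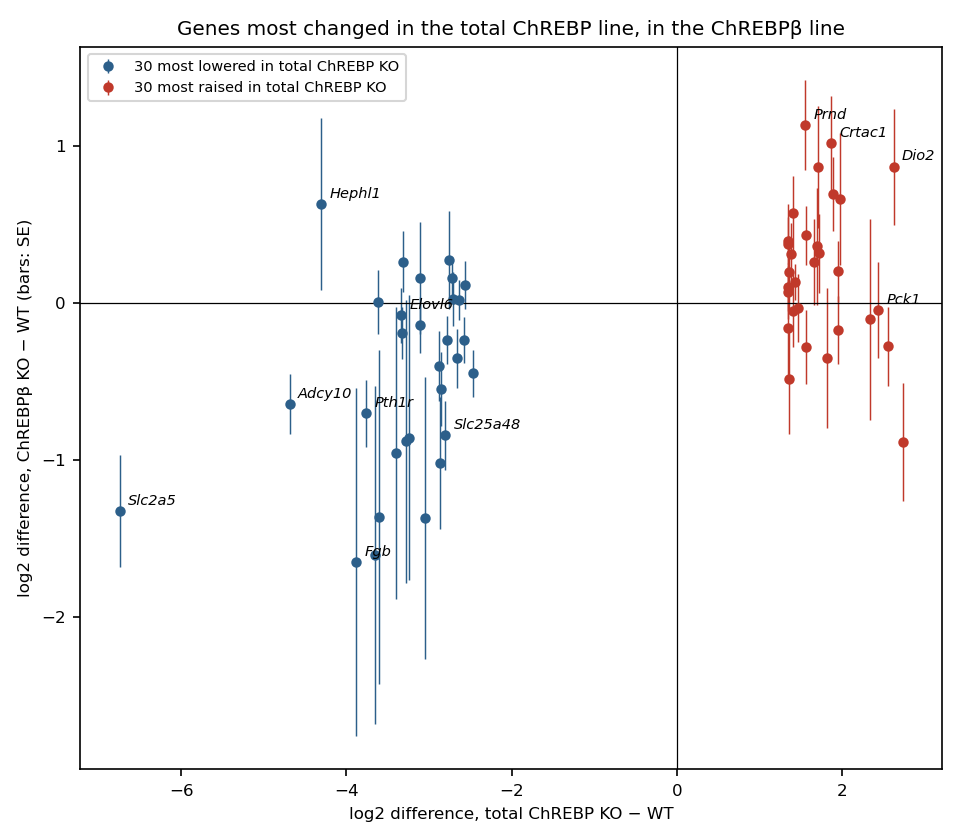
Log2 difference in the ChREBPβ line (vertical axis, with SE) against the log2 difference in the total ChREBP line (horizontal axis) for the 30 most lowered (blue) and 30 most raised (red) genes of the total line. Slc2a5 lies at -1.32 against -6.74 and Elovl6 at -0.08 against -3.34.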

How the data were processed

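RNA of pgWAT was labelled with Cy3 and hybridised to 1-colour Agilent mouse arrays, 1 array per mouse, and quantified by the authors with Agilent Feature Extraction 10.10.1.1, the version in the submitters' processing notes. The deposited array files hold median, background and processed intensity values per spot, and the deposited flags are other values of 0 or 1 set by the same software. The deposited series table holds log2 values that the authors had quantile normalised, with replicated probes merged by their median.

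Groups and wash batches were taken from the labels. For the present values the median intensity was quantile normalised over the 25 arrays without background correction. Control spots and spots with an outlier flag were left out, log2 was taken, and replicated probes were merged by their median. All 40561 gene probes of the series table were fitted in limma 3.58.1 (R 4.3.3) with the 4 groups and the 4 wash batches as fixed terms (18 residual degrees of freedom, prior 2.49). Moderated tests were adjusted by the Benjamini-Hochberg method over all probes. The contrasts were knockout minus wild type in each line and the difference between these contrasts. The fit was tested on simulated data. The precision is limited by the number of arrays, and p-values measure the spread between mice.

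Probes were named by RefSeq accession (25611), symbol (6779) or older symbol (340), and 7831 kept the name of the array design. Positions of probes come from the array's annotation and refer to mm9. A gene was represented by its brightest probe. Genes were named if they were among the 15 higher or 15 lower of smallest p with a plain symbol, among up to 4 members of smallest p or the fixed members of a described list, called under an alternative, or separated completely between the groups. The 30 genes most lowered and most raised in the total ChREBP line were also followed. Members and lists were chosen with earlier results of these data known. Lists received no test and are described by counts and medians.

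The 27 alternatives, 13 of which left out 1 array, concerned normalisation, background, filters, batch, slide, replicate number, array weights, prior, probe choice and organ genes. The last was chosen after seeing the data.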

Additional observations from a re-analysis of the deposited data

Results flagged for a closer look

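The effect in the ChREBPβ line differed from that in the total ChREBP line at a limma adjusted p under 0.05 for 41 of the 142 genes followed. Some of the 142 were chosen by their p in the ChREBPβ line or their effect in the total line. Both enter this contrast, and the share over all genes is not given here, so the count is a description. Below, values are the effect in the ChREBPβ line minus that in the total line, on the log2 scale. Among carbohydrate and lipid genes they were 5.42 for Slc2a5, 3.26 for Elovl6, 1.82 for Acaca, 1.55 for Acly, 1.33 for Slc2a4, 1.14 for Gpd1, 1.04 for Me1, 0.93 for Acacb, 0.89 for Thrsp, 0.86 for Slc25a1, 0.63 for Ugp2, 0.32 for Fasn, 0.51 for Srebf1, -0.61 for Ppp1r3d and -2.48 for Pck1. Among regulators and receptors they were 1.02 for Mlxipl, 0.36 for Max, 1.16 for Bhlhe40, 1.06 for Dusp1, 0.58 for Trib3, 4.04 for Adcy10, 3.06 for Pth1r, 0.49 for Epha4, 0.53 for Mdfic, -1.38 for Adrb3 and -0.49 for Acvr1c. For the other genes they were 2.28 for Otop1, 2.00 for Synpo2, 1.96 for Slc25a48, 1.48 for Igsf21, 1.44 for Rnf144b, 1.09 for Col12a1, 0.78 for Map1a, 0.72 for Th, 0.47 for Slx4ip, 0.28 for Gmfb, -1.43 for Cyp2e1, -1.19 for Apoc1, -1.12 for Oplah, -0.82 for Slc25a42 and -0.53 for Fahd1.

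Single arrays lay far from the rest of their genotype, by Dixon's test, in 14 of 260 gene groups and 12 of 100 list groups, where chance gives about 1 in 20. On KO 4 these were Ucp1 at 6.94, Klf6 at 13.33, Trim35 at 13.28 and Sprr1a at 6.55. On KO 2 they were Dlk1 at 11.02 and Hp, the haptoglobin gene, at 17.39, and on KO 5 Dbh at 5.43. Among wild types they were Dio2, Pck1 and Trarg1 on WT 2 (9.46, 12.86 and 12.33), Ddit3 on WT 4 (9.77), Mcat on WT 8 (12.01) and Rgs5 on WT 1 (13.10). Fasn on WT 6 (18.68) is listed because the other 6 wild types sat at the top of the quantile scale, where any lower array would stand apart, and nothing is read from it.

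Of the list means, WT 6 stood apart in lymphocyte markers (1.27), antigen presentation (0.81), the Tmem176 and Ms4a family (0.77) and macrophage markers (0.48). WT 1 stood apart in epididymis and vas deferens genes (1.03), smooth muscle and pericyte markers (0.84) and TGF-β and BMP signalling (0.20), and WT 3 in Nrf2 genes (0.26). Among knockouts these were KO 2 in smooth muscle and pericyte markers (1.23), KO 3 in insulin signalling (0.19), KO 4 in heat shock genes (-0.19) and KO 8 in fatty acid uptake (0.13).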

How the results depend on the processing

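No gene passed a limma adjusted p of 0.05 with the wash batch model, and 2 passed with normexp background correction, with probes of weight 1 on all arrays of the ChREBPβ line, with the methods' weight filter and with a trend and robust prior (Plxna2 and Tmem176b each time), 43 with array weights and 9 with the organ covariates, which include Saa1 and Saa2. Leaving out 1 array gave 0 to 74. Mlxipl was -0.80 to -0.65 when 1 array was left out and passed without KO 4 and with array weights (-0.86), and it was -0.42 as a mean over its probes. Deviations of arrays with the same replicate number correlated at 0.07, -0.45, -0.03, 0.41 and -0.15, and only number 6 matched itself best. Wash batch was not removed from these deviations. KO 2 and WT 2 were in different wash batches, as were KO 3 and WT 3, so the correlations cannot decide whether the numbers pair the mice. With the replicate block 0 genes passed and 1420 had an unadjusted p under 0.05, 915 higher and 505 lower. Under that block fat progenitor markers had a median of -0.16 and Mlxip, Scd1 and Adipoq changed sign (0.029, -0.020 and -0.0001011). With the organ covariates the medians were -0.10 for lipolysis, -0.034 for adipocyte markers, -0.0075 for adrenergic signalling, 0.21 for amino acid stress, 0.074 for immediate early genes, -0.033 for ChREBP and its partners, 0.16 for plexins and -0.22 for glucose and fructose uptake. Pklr, Elovl6, Me1, Cidea, Ppargc1a, Adipoq, Sord and Khk changed sign there (0.73, 0.10, 0.014, -0.25, 0.019, -0.10, 0.034 and 0.26). So did Fasn with the processed signal (0.043), Me1 with array weights (0.0030) and Mlxip and Scd1 as means over probes (0.086 and -0.026). With 1 array left out, Me1 ran from -0.079 to 0.087, Pck1 from -0.37 to 0.12, Mlxip from -0.082 to 0.037, Fasn from -0.060 to 0.0001508, Elovl6 from -0.20 to 0.074, Gpd1 from -0.091 to 0.0098, Scd1 from -0.030 to 0.095 and the median of fat progenitor markers from -0.14 to 0.11. The cause was not tested. Of the other values, 3718 for genes kept their direction and side of the threshold. For lists, 1340 moved by no more than the spread of the list mean between arrays, whatever their sign. These include the ChREBP targets, whose median went from -0.28 to 0.08 with the organ covariates. The list count therefore does not measure a kept direction. Genes near background, such as Ucp1, limit what these arrays resolve.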
